A study of Mus musculus with 12 samples.

Results

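The genes described here were Dbp, Tef and Hlf, which encode the PAR bZIP transcription factors, and Nfil3, which encodes their repressor counterpart. Peaks of BMAL1-ChIP-seq were taken as theirs when the midpoint of the peak had a protein-coding start site of one of the 4 genes as its nearest (GENCODE M21, mm10). This gave 56 of 35822 peaks, of which 13 belonged to Dbp, 14 to Tef, 19 to Hlf and 10 to Nfil3. Peaks that overlapped by at least 1 bp were merged across libraries, and the 56 peaks then lay in 16 of 16818 regions. The 4 genes were compared with all 21840 protein-coding genes. Nearness to a start site does not show which gene a region acts on.

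The cells were primary mouse adult fibroblasts (MAFs), grown from the ears of adult female C57BL/6J mice. Senescent cells had been exposed to 20 Gy of X-rays and then kept in culture for further days, and control cells had been sham irradiated. Both groups were grown at 3% O2, were given 100 nM dexamethasone to synchronize their clocks, and were fixed with formaldehyde 12 hours later, so that a single circadian time was sampled. Each group had 3 ChIP libraries, and the 6 input libraries were not analysed here. The labels do not say whether replicates were separate cultures or animals, so p-values measure only the spread between these libraries. The labelled cell type could not be checked, since peak lists hold no expression.

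BMAL1 and CLOCK bind together at the E-box, a 6-base palindrome, and drive the transcription of clock and clock output genes. DBP, TEF and HLF are activators that bind the D-box, and NFIL3 (also known as E4BP4) represses from the same element. Through the D-box these factors feed back on clock genes such as the Per genes, and in liver they drive genes of drug and lipid metabolism.

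The 16 regions held 12 copies of the E-box CACGTG, in 6 regions, and these are shown first because the peaks that follow are described around them. The sequences are from GRCm38 (mm10), read 5′ to 3′ on the strand of the gene, with the E-box in capitals, and in Dbp also the variant CACGTT, which reads AACGTG on the other strand.
Dbp intron 2 (chr7:45707698-45707844, + strand): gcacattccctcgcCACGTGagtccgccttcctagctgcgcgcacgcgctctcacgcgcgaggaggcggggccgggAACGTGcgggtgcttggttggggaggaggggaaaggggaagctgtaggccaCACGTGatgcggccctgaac
Tef upstream 1 (chr15:81810929-81810962, + strand): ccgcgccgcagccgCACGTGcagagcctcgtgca
Tef upstream 2 (chr15:81811040-81811073, + strand): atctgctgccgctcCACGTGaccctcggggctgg
Tef upstream 3 (chr15:81811262-81811295, + strand): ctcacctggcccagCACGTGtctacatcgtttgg
Tef exon 1 (chr15:81802534-81802563, + strand): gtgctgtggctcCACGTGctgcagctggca
Hlf upstream (chr11:90418097-90418223, − strand): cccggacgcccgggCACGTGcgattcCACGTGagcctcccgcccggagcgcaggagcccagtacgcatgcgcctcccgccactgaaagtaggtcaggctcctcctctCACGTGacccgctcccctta
Hlf intron 2 (chr11:90369843-90369876, − strand): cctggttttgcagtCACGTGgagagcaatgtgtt
Nfil3 intron 1 (chr13:52974844-52974892, − strand): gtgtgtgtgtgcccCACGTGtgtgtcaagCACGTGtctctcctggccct

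The first pair of E-boxes in the Hlf upstream sequence stood 6 bp apart. It was the only tandem in the 16 regions, where a tandem is a pair of E-boxes or variants with 6 or 7 bp between them. The E-boxes of the Nfil3 sequence stood 9 bp apart and those of Dbp 107 bp apart. Over their whole length, 0.274% of 16815 regions and 2.26% of 1105 regions called in all 6 libraries held a tandem. In windows of 200 bp around the best-ranked peak, 0 of the 16 regions held one, as the Hlf tandem lay outside its window, and the shares were 0.22% of all regions, 1.54% of those called in all 6 libraries and 0.0183% of 32851 RefSeq promoter windows (250 bp before to 50 bp after the start site, GRCm38.p6). The shares of these windows with an E-box were 17.0%, 45.2% and 7.15%. In the same windows, 4 of the 16 regions of the 4 genes held an E-box, because the E-boxes of Dbp and those upstream of Hlf lay farther than 100 bp from the midpoint of the best peak. Over their whole length the 16 regions held 0.927 E-boxes per kb, compared with 1.19 in regions called in all 6 libraries and 0.839 in all regions.

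No D-box (TTACGTAA or TTATGTAA) and no AP-1 motif (TGACTCA or TGAGTCA), both searched on both strands, lay inside any of the 16 regions. A D-box was within the window of 1 of the 16, outside the region itself. Windows with a D-box made up 0.94% of all regions, and windows with an AP-1 motif made up 16.6%.

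The lists hold scored positions without reads, so depth is unknown and a peak that was not called does not show that BMAL1 was absent. Scores are not normalized between libraries, and each peak was therefore described by its rank within its own list, where rank 1 is the highest score and ties share the mean rank. The lists held 2794, 3349 and 10601 peaks in control libraries 1 to 3 and 4220, 9805 and 5053 in senescent libraries 1 to 3, so control 3 and senescent 2 had the longest lists. Among the 500 best peaks of each list, the median width was 419, 486.5 and 629 bp in control and 634, 684 and 630 bp in senescent libraries, and every senescent value lay above every control value. Over the whole lists the groups overlapped, with median widths of 194, 205 and 211 bp in control and 264, 187 and 249 bp in senescent libraries. The whole lists covered 709488, 920268 and 2894614 bp in control and 1417186, 2495140 and 1615120 bp in senescent libraries. The part of list length and peak width in the results below was not tested, beyond the settings with equal list lengths. Values are given below in the order control 1, 2, 3 and senescent 1, 2, 3.

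Dbp, Tef and Hlf were among the strongest BMAL1 targets in both groups, and Nfil3 was not. Each of the 3 activator genes had a peak in all 6 libraries, as did 5.14% of protein-coding genes, and each had a best rank of 100 or better in every library, as did 0.215% (47 genes). Nfil3 had no peak in control 1 or 2 and its best rank in any library was 1239. Of the 16 regions, 4 were called in all 6 libraries (1 of Dbp, 1 of Tef and 2 of Hlf), against 6.58% of all regions. A further 3, all assigned to Nfil3, were called in at least 2 senescent libraries and 0 control libraries, which held for 9.44% of all regions, and 0 were called in at least 2 control libraries and 0 senescent libraries, which held for 5.86%.

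**Figure D1:**
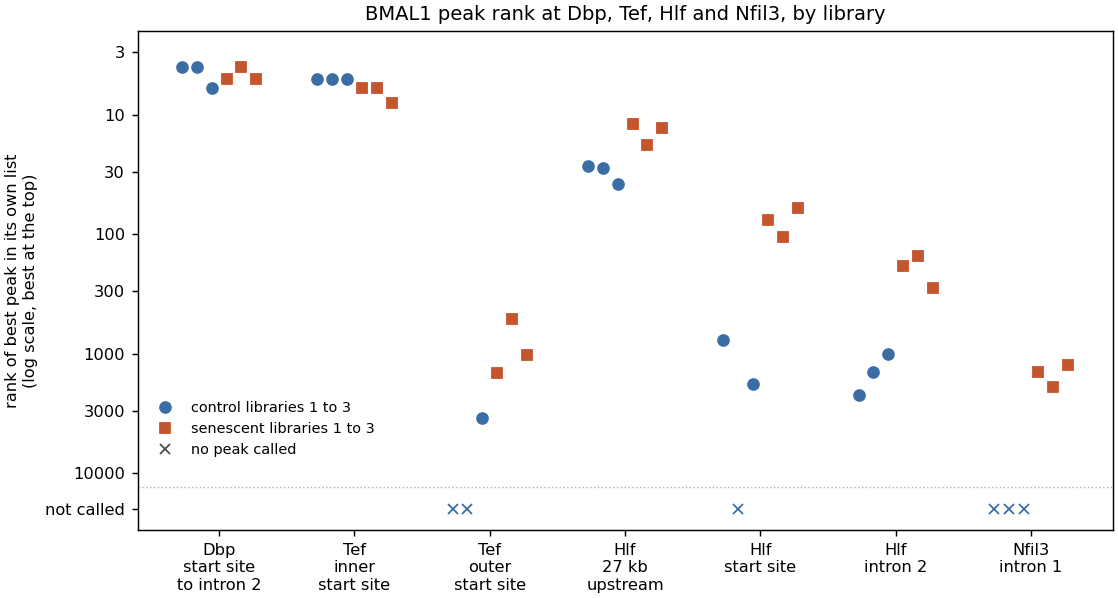
Rank of the best BMAL1 peak within its own list (y axis, log scale, best rank at the top) in 7 regions of Dbp, Tef, Hlf and Nfil3, with 1 point for each control (circles) and senescent (squares) library and a cross where no peak was called. Dbp and the inner start site of Tef stayed within ranks 4 to 8 in all 6 libraries, while senescent points lay above control points in the regions of Hlf.

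Dbp (ENSMUSG00000059824, + strand) is the best known of the D-box activators and a classical output of the clock. Its peaks formed 1 region of 4832 bp, chr7:45703864-45708695, that ran from upstream of the gene through exon 1 and intron 1 into intron 2. The best rank was 4, 4 and 6 in control and 5, 4 and 5 in senescent libraries. The groups overlapped, with a mean of 4.67 ± 1.16 (SD, n = 3) in control and 4.67 ± 0.577 in senescent libraries. The difference of 0.02 in mean log2 rank had p = 1.0 in an exact two-sided permutation test over 20 arrangements. With 3 libraries per group such a test cannot give a p below 0.1.

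The Dbp region was divided differently by the peak calls of the 6 libraries. It was called as 4, 3 and 2 separate peaks in control and as 2, 1 and 1 in senescent libraries. The bases left uncovered between the first and the last of these peaks came to 809, 475 and 123 bp in control and 174, 0 and 0 bp in senescent libraries. The groups overlapped in both measures, since senescent 1 also kept a gap. Of the regions called in all 6 libraries, 11.8%, 10.4% and 11.6% were divided in the control lists and 6.69%, 14.2% and 8.95% in the senescent lists.

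Where the region was divided, its promoter peak and its intron 2 peak could be read apart. The promoter peaks were the ones that ranked 4, 4 and 6 in control and 5 in senescent 1, and in control 1 the midpoint of this peak, at −421 bp, also lay over Car11, a neighbouring protein-coding gene. The intron 2 peaks ranked 13, 14 and 18 in control and 10 in senescent 1, with midpoints between 2331 and 2375 bp downstream of the nearest Dbp start site. Control 1 and 2 also had a peak in intron 1, at ranks 79 and 115, and control 1 a peak of 155 bp in exon 1 at rank 2447.5.

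Both E-boxes of the Dbp region were in intron 2, at 2431 and 2544 bp downstream of the nearest start site, and the variant lay between them at 2493 bp. All 3 elements were covered in all 6 libraries. The better-ranked promoter peaks held no CACGTG, and neither did the RefSeq promoter window of Dbp.

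The bases covered by Dbp peaks were 3581, 3946 and 4551 bp in control and 4210, 4832 and 4403 bp in senescent libraries. Control 3 lay above senescent 1 and 3, so the groups overlapped. The means of 4026 ± 489.9 and 4482 ± 318.4 bp (SD, n = 3) did not differ beyond this spread (exact permutation test, p = 0.3, adjusted p = 0.42 over 7 tests).

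**Figure D2:**
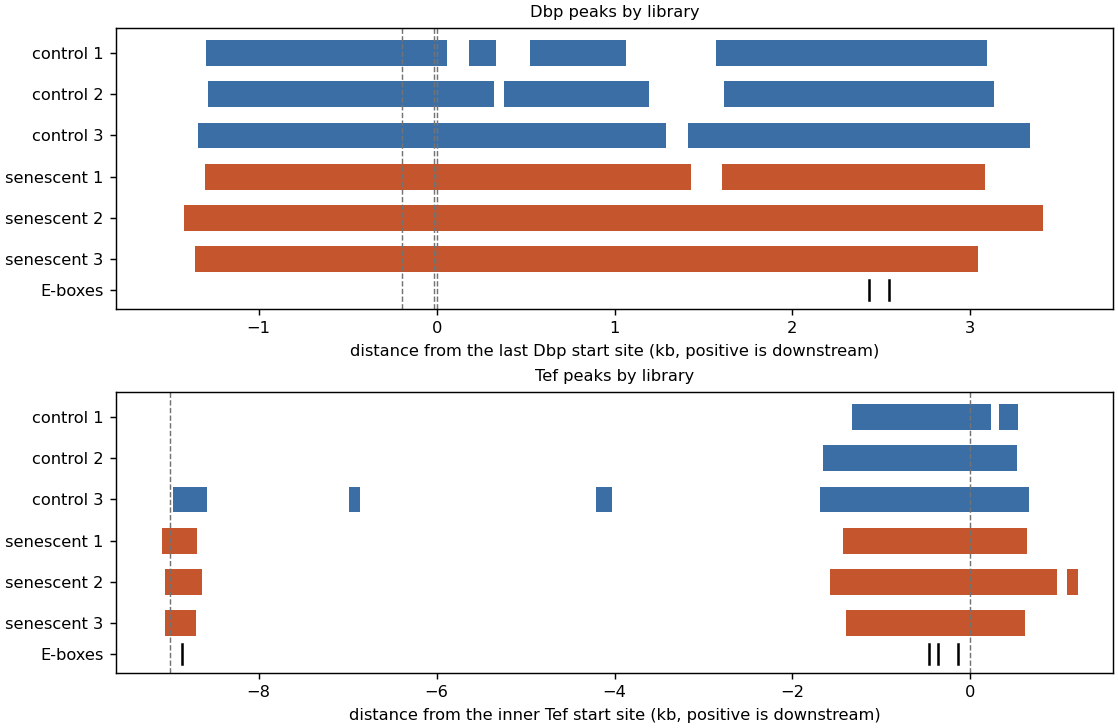
Peaks of Dbp (top) and Tef (bottom) in each library as bars, against the distance from the last Dbp or the inner Tef start site (x axis, kb). Dashed lines mark annotated start sites and black ticks the 2 and 4 E-boxes. The Dbp region is in 4 pieces in control 1 and in 1 piece in senescent 2 and 3, and the outer Tef start site has a peak in 1 control and 3 senescent libraries.

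Tef (ENSMUSG00000022389, + strand) has 2 annotated coding start sites, an outer one and an inner one that lies in intron 1 of the longer transcript. The main region, chr15:81809729-81812384 (2656 bp), covered the inner start site. Its best rank was 5 in each control library and 6, 6 and 8 in senescent libraries. All 3 senescent ranks were poorer than all 3 control ranks, which was seen in 19.4% of the 1123 genes with a peak in all 6 libraries. The difference was 0.40 in mean log2 rank (exact permutation test, p = 0.1, adjusted p = 0.175 over 7 tests). The difference nearly closed, to 0.04 (exact permutation test, p = 0.9), when ranks were taken as a percentage of the list, and was 0.26 without senescent 3.

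The 3 E-boxes of this region lay at −468, −357 and −135 bp from the inner start site, and all of them were covered in all 6 libraries. The midpoints of its best peaks lay between −570 and −305 bp. The region covered 1777, 2183 and 2346 bp in control and 2064, 2551 and 2018 bp in senescent libraries, and the groups overlapped.

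The outer Tef start site had a weaker region, chr15:81802328-81802830. It was called in control 3 only among the controls, at rank 3448, and in senescent libraries 1 to 3 at ranks 1442.5, 510 and 1022.5. Calls in 3 senescent libraries and 1 control library were found in 3.35% of all regions. All senescent ranks were better than that of control 3, as in 61.7% of those 564 regions, and the bases covered did not differ beyond the spread (exact permutation test, p = 0.2). The peak midpoints lay in the untranslated part of exon 1, 103 to 221 bp downstream of the start site, with 1 E-box at 128 bp, and the 3 senescent midpoints also lay over the antisense gene Gm17597. Without control 3, the region would be among those called only in senescent libraries.

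The other 3 regions of Tef were each called in 1 library. Control 3 had peaks in intron 1 at ranks 8836.5 and 7631, and senescent 2 had a peak downstream of the inner start site at rank 7711.5. These are the libraries with the longest lists. Over all peaks of Tef, 1777, 2183 and 3024 bp were covered in control and 2456, 3098 and 2370 bp in senescent libraries, with means of 2328 ± 636 and 2641 ± 397.8 bp (SD, n = 3, exact permutation test, p = 0.4, adjusted p = 0.467). The groups overlapped because of control 3, and with lists of equal length every senescent value lay above every control value (difference 495 bp, exact permutation test, p = 0.1). With start sites of all gene types the difference was 94 bp (exact permutation test, p = 0.8). The peaks at the outer start site were then nearest to Gm17597.

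Hlf (ENSMUSG00000003949, − strand) had peaks in all 6 libraries that ranked better and covered more bases in each senescent than in each control library. Its 19 peaks formed a strong region far upstream, a region at the start site, a region in intron 2 and a region with 1 weak peak. In the first 3 of these regions, each senescent library had a better rank than every control library that had a peak.

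The strongest Hlf region, chr11:90417628-90419076 (1449 bp), had its best midpoints between −27468 and −27322 bp, over no annotated gene. It ranked 27, 28 and 38 in control and 12, 18 and 13 in senescent libraries, and the groups did not overlap. This was the best rank of the gene, with means of 31.0 ± 6.08 and 14.3 ± 3.22 (SD, n = 3), a difference of −1.12 in mean log2 rank, or 2.17-fold. The exact permutation test gave p = 0.1, the smallest possible, and an adjusted p of 0.175 over 7 tests. A better best rank in every senescent library was found in 18.3% of genes with a peak in all 6 libraries, and 170 of 1123 such genes had a lower difference than Hlf.

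This upstream region covered 880, 887 and 1078 bp in control and 1357, 1362 and 1379 bp in senescent libraries. The means were 948.3 ± 112.3 and 1366 ± 11.5 bp (SD, n = 3), and the groups did not overlap, as was the case in this direction for 29.7% of the 1106 regions called in all 6 libraries. The tandem and the third E-box, at −27312, −27300 and −27219 bp, were covered in all 6 libraries, as were 2 variants. A peak of 150 bp next to this region, in senescent 2 alone, ranked 7125.

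At the Hlf start site a peak was called at a poor rank or not called in control libraries, and was called at a better rank in senescent libraries. The region, chr11:90390446-90391424, ranked 769 in control 1 and 1806 in control 3, was not called in control 2, and ranked 75.5, 106 and 60 in senescent libraries. All 3 senescent ranks were better than both control ranks. With no rank in control 2 the ranks were not tested. The bases covered were 195, 0 and 137 bp in control and 979, 683 and 639 bp in senescent libraries, with means of 110.7 ± 100.1 and 767 ± 184.9 bp (SD, n = 3), and the groups did not overlap. Of the 457 regions called in 3 senescent and 2 control libraries (2.72% of all regions), 23.6% had ranks and 36.3% had covered bases separated in this direction.

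No E-box, variant, D-box or AP-1 motif lay in the region at the Hlf start site. Its upstream part is shown because it was the region of Hlf with a large gain in rank and no E-box, with a CRE (TGACGTCA, the cAMP response element) in capitals. The CRE was searched for after the sequence had been seen. It lay 28 bp upstream of the start site, and the same letters were in 1.28% of region windows, 1.81% of those called in all 6 libraries and 1.79% of promoter windows. The match is a description and does not show a site in use.
Hlf promoter (chr11:90390896-90391167, GRCm38, − strand): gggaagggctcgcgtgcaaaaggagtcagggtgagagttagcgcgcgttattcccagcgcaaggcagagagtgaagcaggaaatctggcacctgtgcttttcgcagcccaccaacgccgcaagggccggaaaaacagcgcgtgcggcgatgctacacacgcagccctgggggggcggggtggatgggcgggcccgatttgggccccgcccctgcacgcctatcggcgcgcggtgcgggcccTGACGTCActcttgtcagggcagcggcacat

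Intron 2 of Hlf held the region with the largest rank difference among the 4 regions of these genes that were called in all 6 libraries. At chr11:90369536-90370133, with midpoints from 20992 to 21101 bp downstream of the start site, it ranked 2199, 1419.5 and 998.5 in control and 183.5, 153 and 280.5 in senescent libraries. The groups did not overlap, as was the case in this direction for 17.6% of the 1106 regions called in all 6 libraries. The difference was −2.88 in mean log2 rank, or 7.34-fold, and 12 of the 1106 regions had a lower one. The exact permutation test gave p = 0.1 (adjusted p = 0.133 over the 4 regions), and the region was picked out after its values were seen.

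The intron 2 region covered 194, 177 and 207 bp in control and 537, 579 and 491 bp in senescent libraries, with means of 192.7 ± 15.0 and 535.7 ± 44.0 bp (SD, n = 3). No control value reached a senescent one, against the same 29.7%. Its E-box, 21035 bp downstream of the start site and 16 bp from the midpoint of the best peak, was covered in all 6 libraries.

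Over all its peaks, Hlf had 1269, 1064 and 1422 bp covered in control and 2873, 2774 and 2509 bp in senescent libraries. The means were 1252 ± 179.6 and 2719 ± 188.2 bp (SD, n = 3), a 2.17-fold difference with no overlap (exact permutation test, p = 0.1, adjusted p = 0.175). Covered bases were higher in every senescent library for 25.3% of genes with a peak in all 6 libraries. The 500 best peaks of the senescent lists were also wider, as given above, while the widths over whole lists overlapped.

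**Figure D3:**
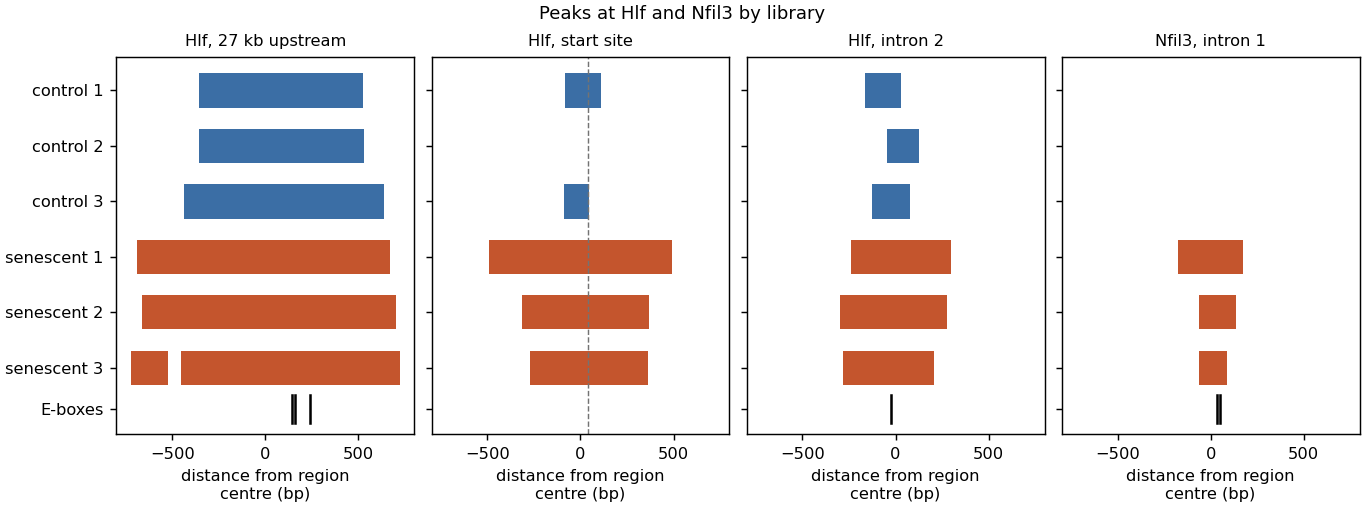
Peaks at 3 regions of Hlf and at the intron 1 region of Nfil3 in each library, as bars against the distance from the centre of the merged region (x axis, bp, gene strand), with E-boxes as black ticks and the Hlf start site as a dashed line. Senescent bars are longer than control bars in each of the 3 Hlf regions, and Nfil3 has bars in the 3 senescent libraries only.

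Nfil3 (ENSMUSG00000056749, − strand), the D-box repressor, had few and weak BMAL1 peaks. Control 1 and 2 had none. Control 3 had 1 peak of 121 bp in intron 1 at rank 9692, near the end of its list. The 9 senescent peaks lay in 5 regions.

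The only region of Nfil3 that was called in all 3 senescent libraries, chr13:52974734-52975086, was in intron 1, with midpoints from 6163 to 6198 bp downstream of the start site. It was called in 0 control libraries and at ranks 1427, 1903.5 and 1239 in senescent libraries, with widths of 353, 198 and 153 bp. Such calls, in 3 senescent and 0 control libraries, were found in 3.73% of all regions. Both of its E-boxes, at 6197 and 6212 bp, were covered in all 3 senescent libraries. It was called only in senescent libraries under every alternative tried. Leaving out a library could not have changed this, and the settings that dropped peaks could not have added a control call.

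A pair of other regions was called in 2 senescent libraries and in no control library. One had midpoints at −27981 and −27947 bp, ranks 4110 and 3935.5 in senescent 1 and 2, and an E-box variant, and the nearest gene of any type was Gm33424, which encodes a lincRNA. The other had midpoints at −52735 and −52634 bp and ranks 7377.5 and 3588 in senescent 2 and 3, inside the lincRNA gene Gm48336. Neither was assigned to Nfil3 when start sites of all gene types were used. The peaks of the first lay at 97.4% and 40.1% of their lists, and those of the second at 75.2% and 71.0%. With lists of equal length, or with only peaks above the median score, neither was still called in 2 senescent libraries. The 2 regions left were called in senescent 2 alone, at ranks 4050 and 7298, in intron 1.

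The bases covered by Nfil3 peaks were 0, 0 and 121 bp in control and 515, 977 and 332 bp in senescent libraries. The groups did not overlap, as was the case in this direction for 12.1% of the 7947 genes with any peak. The means were 40.3 ± 69.9 and 608 ± 332.4 bp (SD, n = 3, difference 567.7 bp, exact permutation test, p = 0.1, adjusted p = 0.175). The difference was 234.7 bp with lists of equal length and 274 bp with start sites of all gene types. The best rank was not tested, since 2 control libraries had none.

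**Figure D4:**
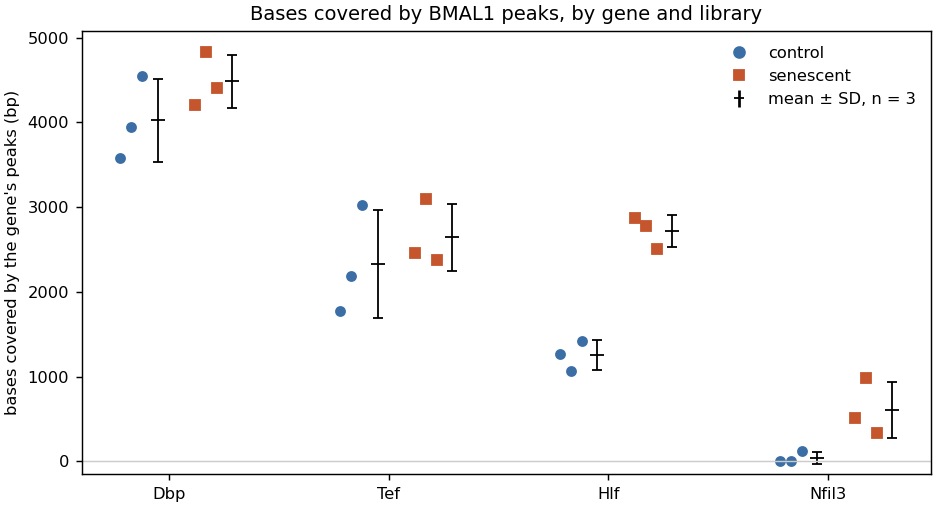
Bases covered by the BMAL1 peaks of each gene (y axis, bp) in each control (circles) and senescent (squares) library, with the mean and SD of 3 libraries in black. The groups overlap for Dbp and Tef and do not overlap for Hlf and Nfil3.

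The genes that these factors act on through the D-box were then examined in the same lists. Of 7 clock genes with D-box regulation, 6 had a peak in all 6 libraries, against 5.14% of coding genes. Rora, which encodes a nuclear receptor that activates Bmal1, had 1 in control 3 alone at rank 3574.5. The paper describes the Per and Cry genes, and those encoding REV-ERB and ROR receptors, as driven by BMAL1 and CLOCK. Their peaks therefore do not bear on regulation through the D-box. Per1 and Per2, which encode repressors of BMAL1 and CLOCK, stayed within ranks 1 to 4. Nr1d2, which encodes the repressor REV-ERBβ, ranked 6, 6 and 10 in control and 3, 5 and 3 in senescent libraries. Per3 ranked 20, 25 and 23 in control and 18, 15 and 16 in senescent libraries. These 2 of the 6 genes were ranked better in every senescent library, and 0 were ranked better in every control library. The shares among genes with a peak in all 6 libraries were 18.3% and 19.4%, as given above.

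Of 8 known targets of the PAR bZIP factors, 3 had any peak, against 36.4% of all coding genes, so this share was near the background. A peak in all 6 libraries was found for 2 of the 8, Pdxk and Por, against 5.14% of coding genes. Alas1, Nr1i3, Cyp7a1, Ces2a and Ces2e had none. Pdxk, which encodes pyridoxal kinase, ranked 912.5, 1008.5 and 1368.5 in control and 636, 183 and 344 in senescent libraries. Por, which encodes the electron donor of cytochrome P450 enzymes, went the other way, with ranks of 28, 34 and 36 in control and 105.5, 87 and 70 in senescent libraries. The groups did not overlap for either gene, which held for 18.3% of genes in the direction of Pdxk and 19.4% in that of Por. Gys2, which encodes the glycogen synthase of liver, was called only in senescent libraries, at ranks 908, 8549 and 2603.5, as were 1.48% of coding genes in all 3 senescent and 0 control libraries.

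Of 12 genes of other bZIP factors, 8 had any peak, against the 36.4% of coding genes, and 2 had a peak in all 6 libraries, against 5.14%. Cebpb, which encodes the activator C/EBPβ, ranked 812.5, 905 and 5915.5 in control and 333, 488 and 514 in senescent libraries. Its groups did not overlap, which held in this direction for 18.3% of genes with a peak in all 6 libraries. Ddit3, which encodes the stress factor CHOP, ranked between 510.5 and 1902.5 with overlapping groups. Cebpa was called in senescent 2 and 3 only, at ranks 8250.5 and 2314, and 3.42% of coding genes had a peak in at least 2 senescent and 0 control libraries.

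The genes whose best ranks were most like those of each activator gene were found by the mean absolute difference in log2 best rank over the 6 libraries. Dbp and Tef were each the other's closest gene, at 0.41. Next for Dbp came Per2 at 0.48 and Nr1d2 at 0.62, and next for Tef came Nr1d1 and Lsm3, both at 0.53. For Hlf they were Nptn at 0.40, Per3 at 0.41 and Pomc at 0.42. Nptn ranked 32, 23 and 20 in control and 13, 11 and 12 in senescent libraries, and Pomc 38, 44 and 49 and then 16, 13 and 14.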

How the data were processed

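The files were lists of BMAL1 peaks, 1 for each of the 6 ChIP libraries. The authors mapped paired reads to mm10 with BWA, removed duplicates with Picard and called peaks per library with MACS2 at an FDR of 1% or less. The version of MACS2 and its control are not given in the sources used here. The score that the authors deposited was read as a −log10 q-value, because the lowest score of each list lay between 2.02 and 2.12. It was used only to rank peaks within a list. Depth cannot be read from these lists, and with 3 libraries per group precision is limited.

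Peaks were assigned to the nearest coding start site of GENCODE M21, merged across libraries on an overlap of 1 bp or more, and searched for exact motifs in GRCm38 (Python 3.11.15, numpy 2.4.6, pandas 2.3.3). Scripts were tested on simulated data. Groups and replicate numbers came from the sample titles. Best ranks (as log2) and covered bases were compared with exact two-sided permutation tests, with Benjamini-Hochberg adjustment over 7 tests. The members, gene lists and tests were chosen with earlier results of these data known. Genes named were the 4 members, 3 lists (clock genes with D-box regulation, PAR bZIP targets, other bZIP factors) and the 3 genes most alike in best rank. Alternatives were the rank as a percentage of the list, peaks above the median score, equal list lengths, all gene types, distance from the peak edge, an overlap of 50%, narrower motif windows, a replicate block and leaving out each library.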

Additional observations from a re-analysis of the deposited data

How the results depend on the processing

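The Dbp rank difference, 0.02 on the log2 scale, had no stable sign: it was −0.34 with ranks as a percentage of the list, −0.078 without control 1 or control 2 and −0.034 without senescent 1 or 3, and leaving out 1 library gave −0.078 to 0.21. The Tef rank difference of 0.40 shrank to 0.043 as a percentage of the list and was 0.26 to 0.47 when 1 library was left out, lowest without senescent 3. The difference in covered bases for Dbp (455.7 bp) ranged from 233.2 to 718.2 bp when 1 library was left out, and the groups no longer overlapped without control 3 (718.2 bp). That for Tef (313.3 bp) ranged from 37.83 to 661.3 bp, again highest and without overlap when control 3 was left out. The Tef difference was 495 bp with lists of equal length and 94 bp with start sites of all gene types. Regions called in one group only (3) came to 1 with peaks above the median score, 1 with start sites of all gene types, and 1 to 4 when a library was left out, with 1 without senescent 2 and 4 without control 3. Within 100 bp of the best midpoint lay 5 of the 12 E-boxes. The rank and covered-base differences of Hlf and the covered bases of Nfil3 kept their direction and did not overlap in any alternative. Leaving out a library cannot make separated groups overlap, so those alternatives could not have changed this. The Hlf rank difference was the same −1.12 with peaks above the median score, equal list lengths, all gene types and distance from the peak edge, where peaks kept their original ranks. The Nfil3 difference (567.7 bp) fell to 234.7 bp with lists of equal length and 274 bp with start sites of all gene types. The Hlf intron 2 rank difference, added after seeing the data, stayed between −3.23 and −2.58.

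Over 1106 regions, the deviations of same-numbered libraries had correlations of 0.0755, −0.0507 and −0.0177, and pairs with different numbers had −0.0887 to 0.0893. Such values cannot show whether same-numbered libraries shared an animal or a culture. With a replicate block the differences were unchanged by construction (Tef 0.40, Hlf −1.12), and the exact sign-flip p was 0.25 or higher, the smallest that 3 pairs allow. Peak lists hold no depth, so fewer reads and less binding cannot be told apart where a peak was not called.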
